A study of Bos grunniens with 24 samples.

Results

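TLR5, LTF, ISG15 and TREM2 are 4 genes of innate sensing and defence among the 639 genes of the deposited table, chosen by gene symbol, and each symbol matched 1 row. They were followed in jejunal tissue, the middle part of the small intestine, of yak calves (Bos grunniens) by RNA sequencing of 24 libraries. There were 8 libraries each from a control group (CON), from a group challenged with enterotoxigenic Escherichia coli (ETEC), a cause of diarrhoea in calves, and from a group pretreated with Pediococcus pentosaceus NQ0729, a lactic acid bacterium, and then challenged (PET). The labels give no age, sex, bacterial strain or dose for the challenge, and they do not name the animals, and each p-value here reflects only the spread of these samples, which may be technical. The table lists only genes that its authors called in at least 1 comparison. In the authors' deposited table, TLR5 and LTF were called lower in ETEC than in CON, ISG15 lower in PET than in CON, and TREM2 higher in PET than in CON, as were 42.4%, 12.8% and 18.3% of the listed genes in those directions. That the 4 genes differ somewhere between groups is therefore a condition of being listed.

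The products of these genes work at different steps of defence. TLR5 is a cell surface receptor that binds flagellin, the protein of the bacterial flagellum, and signals through the adaptor MYD88 to NF-kB; in the gut it is found on epithelial and some myeloid cells. LTF encodes lactoferrin, an iron-binding glycoprotein of neutrophil granules and mucosal secretions that withholds iron from bacteria. ISG15 is a ubiquitin-like protein that interferons induce strongly and that is conjugated to other proteins, and TREM2 is a lipid-binding receptor of macrophages that signals through the adaptor TYROBP. In the authors' coordinates, whose genome build is not given in the sources used here, TLR5 (ENSBGRG00000008930) lies on the minus strand of chromosome 14 from 21691077 to 21693692. LTF (ENSBGRG00000010521) lies on the minus strand of chromosome 22 from 9006066 to 9051007, ISG15 (ENSBGRG00000016212) on the minus strand of chromosome 14 from 49624726 to 49626419, and TREM2 (ENSBGRG00000023032) on the plus strand of chromosome 24 from 20633512 to 20640764. The authors' annotation assigns a leucine rich repeat to TLR5, a transferrin domain to LTF, a ubiquitin domain to ISG15 and an immunoglobulin V-set domain to TREM2.

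Some libraries stand apart for reasons other than their group label, and every result here includes them unless stated. The profiles of CON-1 to CON-3, ETEC-1 to ETEC-4 and PET-1 to PET-3 resembled a weighted mix of 2 libraries of their own group, and these 10 are called sum-like here. A fit with 2 source libraries left a residual 0.256 to 0.714 times as large as a fit with 1 in these 10, against 0.841 to 1.00 times in the other 14, which are called the separate libraries and over which the 4 genes were also tested. In addition, 8 loci on chromosome Y are listed. The 7 of them with no counts in any CON library are called Y-linked here, so their absence from CON was set by this choice. These 7 had no counts in ETEC-8 and 1 count in PET-8, and were detected in the other 14 ETEC and PET libraries (not the same 14). The challenge groups and the presence of Y-linked counts are thus nearly the same division of the libraries. Total counts over the listed genes were 299776 to 1209769 per library. Of 34 enterocyte markers 17 are listed. Their summed FPKM (fragments per kilobase scaled to library depth, a level per gene length) was 140.5 to 2155 across CON, 226.5 to 289.1 across ETEC and 157.1 to 2841 across PET. These markers cannot check the jejunal label, since all listed genes were selected as differing between groups. Markers and gene lists were matched by gene symbol, which only 240 of the 639 listed genes have. None of the 18 macrophage markers and none of the 11 B and plasma cell markers is listed under its symbol. The macrophage content of the libraries is therefore not analysed here. In bulk tissue, fewer cells of a type and less RNA per cell cannot be told apart.

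TLR5 was lower in challenged calves than in controls and higher again in pretreated calves. Its level was 3.02 to 6.09 FPKM in the CON libraries (median 4.53), 1.79 to 2.86 in ETEC (median 1.85) and 2.35 to 6.39 in PET (median 4.06). The ETEC libraries lay close together and below every CON library, whereas the PET range covered the whole CON range and reached into that of ETEC. The CON, ETEC and PET means were 4.55 ± 1.23, 2.05 ± 0.364 and 3.96 ± 1.28 FPKM (SD, n = 8 each). In ETEC, 7 of the 8 libraries had 1.79 to 2.20 FPKM, and the highest, ETEC-8, is the library without Y-linked counts. In PET the highest library was PET-7 and the lowest PET-8, again the library that lacks them apart from 1 count. Most listed enterocyte markers moved in the same directions. In ETEC vs CON 11 of 17 were called lower (median log2 fold change -3.85), as were 41.2% of all genes tested. The lipoprotein assembly gene MTTP was called higher there (1.01), as were 29.6%, and 5 did not pass. In PET vs ETEC 14 of 17 were called higher (median 3.43), as were 35.9%. Summed enterocyte markers in CON-4, CON-7 and CON-8 were 201.1, 184.9 and 140.5 FPKM, below every ETEC library, whereas their TLR5 was above every ETEC library. Sums in the other CON libraries were 631.9 to 2155 FPKM. The part of enterocyte markers in the TLR5 values was not tested.

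**Figure D1:**
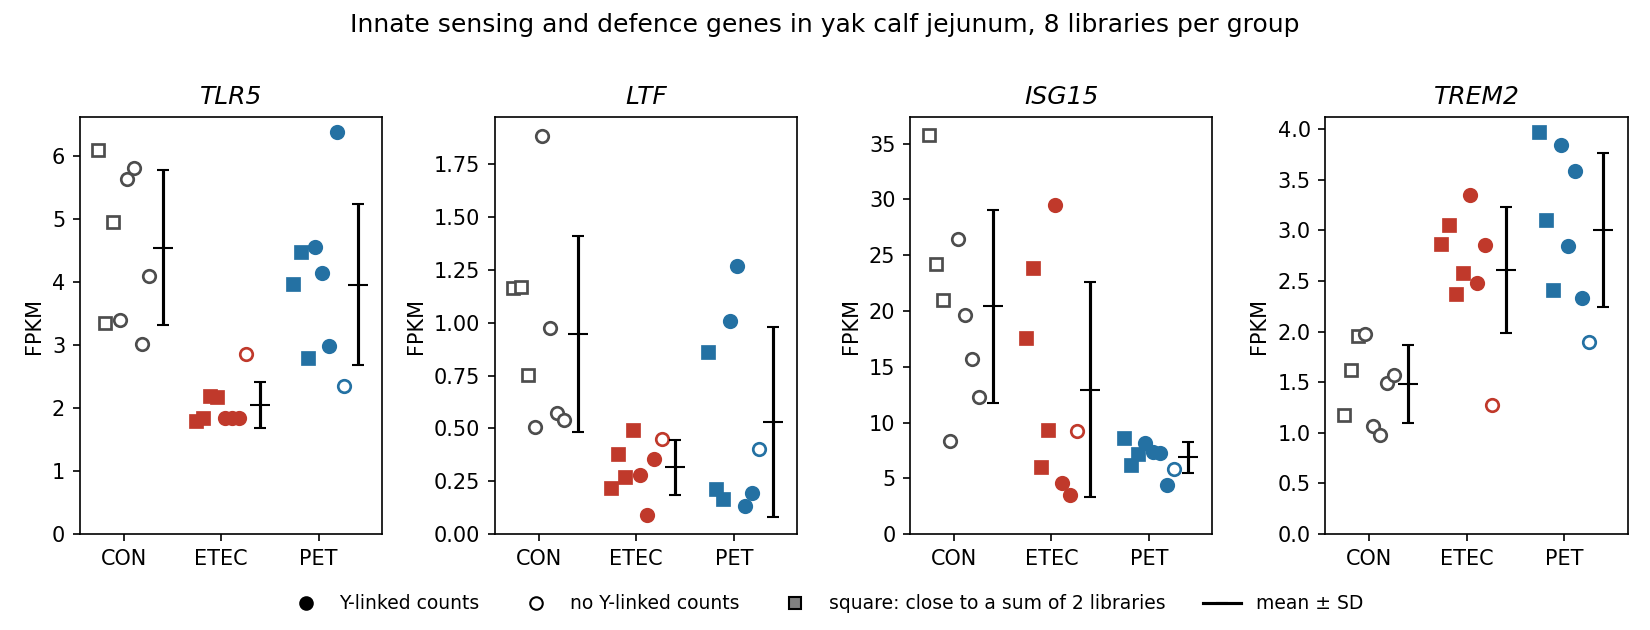
FPKM of TLR5, LTF, ISG15 and TREM2 in each of 8 libraries per group; bars give the mean and SD, open symbols are libraries with at most 1 Y-linked count, and squares are sum-like libraries. TLR5 in ETEC (at most 2.86) lies below all CON libraries (at least 3.02), and the open symbols of TREM2 (at most 1.98) lie below all filled ones (at least 2.34).

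In the edgeR fit (quasi-likelihood test, library sizes taken from the ratio of count to FPKM), TLR5 fell in ETEC vs CON by 1.15 ± 0.24 on the log2 scale (SE; adjusted p = 0.000875), a level 2.22-fold lower. TLR5 rose in PET vs ETEC with a log2 fold change of 0.95 ± 0.24 (SE; adjusted p = 0.00448), or 1.93-fold. The 2 comparisons share the ETEC libraries. PET vs CON gave a log2 fold change of -0.20 ± 0.24 (SE; adjusted p = 0.531), with an interval of about 2 SE from -0.67 to 0.27, which does not show that the levels are equal. The authors' deposited table has log2 fold changes of -1.10, 0.95 and -0.15 for the same comparisons, with adjusted p of 2.41e-09, 3.70e-05 and 0.751; its calls also ask for a 2-fold change, and its PET vs ETEC row for TLR5 is not called.

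With these shares of all genes tested, 41.2% lower in ETEC vs CON and 35.9% higher in PET vs ETEC, a call on its own does not set TLR5 apart in this table. Ranges that did not overlap, with ETEC lower than CON, were less common, at 5.16% of the listed genes. The TLR5 calls did not pass with TMM scaling or over the 14 separate libraries. Fewer samples enter there, with an SE of 0.45 against 0.24 in ETEC vs CON. The part of sample number in that loss was not tested. With TMM scaling, whose premise is that few of the genes entered differ, the log2 fold changes of TLR5 were -0.53 in ETEC vs CON (adjusted p = 0.0656) and 0.36 in PET vs ETEC (0.243). Over the 14 separate libraries they were -1.07 (adjusted p = 0.175, unadjusted p = 0.0335) and 0.96 (adjusted p = 0.181, unadjusted p = 0.0514), and -0.11 in PET vs CON (adjusted p = 0.879). There the edgeR fit called 0 of 578 genes in ETEC vs CON and 0 in PET vs ETEC, with 153 and 163 at an unadjusted p under 0.05, and with TMM 11 and 0. The 5 CON libraries among these 14 still lay above the 4 ETEC libraries, at 3.02 to 5.82 against 1.84 to 2.86 FPKM, as for 7.36% of listed genes. With detection of Y-linked counts as a covariate, where the comparison with CON rests on ETEC-8 and PET-8, the TLR5 value in ETEC vs CON was -1.16 (adjusted p = 0.0529) and that in PET vs ETEC 0.95 (adjusted p = 0.00623, again with 35.9% of genes called higher).

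LTF was also lower in challenged calves, and its mean level was the lowest of the 4 genes in each group. It stood at 0.509 to 1.89 FPKM in CON (median 0.863), 0.0896 to 0.491 in ETEC (median 0.318) and 0.132 to 1.27 in PET (median 0.308). These levels correspond to 45 to 170, 10 to 75 and 14 to 149 counts per library. All ETEC libraries lay below all CON libraries, by a narrow margin between ETEC-4 at 0.491 and CON-4 at 0.509 FPKM, as for 5.16% of the listed genes. Among the PET libraries, PET-1, PET-4 and PET-5 were at 0.861, 1.01 and 1.27 FPKM and the other 5 at 0.132 to 0.404. PET-1 is sum-like, with PET-4 weighted at 90.4% and PET-5 making up the rest, so the 3 high values cannot be taken as independent. Its residual, at 0.714 times, was the highest of the 10 sum-like libraries, and its LTF level lay below both sources. The same 3 libraries had summed enterocyte markers of 2151, 2392 and 2841 FPKM, against 157.1 to 812.7 in the other 5, and summed T and NK cell markers of 109.3, 133.4 and 83.4 FPKM, against 21.8 to 26.8. In CON the highest LTF levels were in CON-1, CON-2 and CON-5, which also had the highest enterocyte sums, at 1590, 1094 and 2155 FPKM. The part of tissue composition in the LTF values was not tested.

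LTF fell in ETEC vs CON by 1.57 ± 0.46 on the log2 scale (SE; adjusted p = 0.00705 in edgeR), a level 2.98-fold lower, where 41.2% of all genes tested were called lower. PET vs ETEC gave 0.75 ± 0.46 (SE; adjusted p = 0.188) and PET vs CON -0.83 ± 0.45 (SE; adjusted p = 0.143). The mean of LTF in PET was 0.531 ± 0.448 FPKM (SD, n = 8), between 0.317 ± 0.130 in ETEC and 0.946 ± 0.465 in CON, and its spread was the widest of the 3 relative to the mean, with a coefficient of variation of 84.3% against 41.0% in ETEC and 49.1% in CON. In the authors' deposited table the log2 fold changes of LTF were -1.52, 0.74 and -0.78, with adjusted p of 3.62e-05, 0.398 and 0.338. With TMM scaling LTF fell in ETEC vs CON by 0.89 on the log2 scale (adjusted p = 0.0311; 15.4% of genes lower), and PET vs ETEC turned to -0.12 (0.8004). Over the 14 separate libraries the LTF value in ETEC vs CON was -1.61 (adjusted p = 0.186, unadjusted p = 0.0456), with 1.03 in PET vs ETEC (adjusted p = 0.344) and -0.57 in PET vs CON (0.584). With Y-linked detection as a covariate it was -1.46 (adjusted p = 0.147). LTF passed in PET vs CON without PET-5, at -1.14 (adjusted p = 0.0395).

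Of 18 neutrophil markers, which include LTF, 4 are listed. Their summed level was 31.4 to 86.8 FPKM across CON, 12.9 to 40.1 across ETEC and 7.04 to 127 across PET, most of it from MMP9, a matrix metallopeptidase (CON 46.7 ± 17.2 FPKM, ETEC 22.02 ± 10.4; SD, n = 8 in either group). In ETEC vs CON the neutrophil granule enzyme MPO fell (log2 fold change -1.49, adjusted p = 0.0147), whereas MMP9 was at -1.09 (adjusted p = 0.0723). In PET the summed neutrophil markers were 70.65, 63.8 and 127 FPKM in PET-1, PET-4 and PET-5, where LTF was high. They were 7.04 to 38.3 in the other PET libraries. In CON the highest sum was 86.8 FPKM in CON-6, which is not among the CON libraries with the highest LTF. The part of neutrophil number in the LTF values was not tested.

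ISG15 was the most abundant of the 4 genes. Its median was lowest and its levels were most even in pretreated calves, although the lowest single library was ETEC-7. Its level was 8.32 to 35.8 FPKM in CON (median 20.3), 3.48 to 29.5 in ETEC (median 9.28) and 4.36 to 8.59 in PET (median 7.23). Only CON-4, at 8.32 FPKM, lay within the PET range, below PET-1 at 8.59. The ETEC libraries were split, with ETEC-1, ETEC-2 and ETEC-5 at 17.6, 23.8 and 29.5 FPKM and the other 5 at 3.48 to 9.33. ETEC-1 and ETEC-2 are sum-like, with ETEC-5 weighted at 61.5% and 65.7%, so the 3 high values cannot be taken as independent. The highest PET library stood 1.97-fold above the lowest, against 8.48-fold in ETEC and 4.30-fold in CON.

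ISG15 fell in PET vs CON by 1.57 ± 0.40 on the log2 scale (SE; adjusted p = 0.00390 in edgeR), a level 2.97-fold lower, with means of 6.88 ± 1.37 FPKM in PET and 20.4 ± 8.63 in CON (SD, n = 8 each). Among all genes tested, 15.3% were called lower in PET than in CON. ETEC vs CON gave -0.66 ± 0.39 (SE; adjusted p = 0.123), with 12.9 ± 9.62 FPKM in ETEC (SD, n = 8), and PET vs ETEC gave -0.91 ± 0.39 (SE; adjusted p = 0.0579). The authors' deposited table has -0.59, -0.93 and -1.52 for ETEC vs CON, PET vs ETEC and PET vs CON, with adjusted p of 0.334, 0.127 and 2.89e-07.

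Of the 4 genes, ISG15 has the calls that moved most with single ETEC libraries. Without ETEC-5 it passed in ETEC vs CON at -0.95 (adjusted p = 0.0328), and without ETEC-3, ETEC-6 or ETEC-7 it passed in PET vs ETEC, at -1.02 (0.0412), -1.04 (0.0324) and -1.05 (0.0251). With TMM scaling ISG15 fell in PET vs ETEC by 1.48 on the log2 scale (adjusted p = 0.00619; 14.9% of genes lower), and in ETEC vs CON its value turned to 0.026 (0.954). Over the 14 separate libraries the ISG15 value in PET vs CON was -1.32 (adjusted p = 0.175, unadjusted p = 0.0402), and there the PET range (4.36 to 8.21 FPKM) lay below that of CON (8.32 to 26.5), as for 2.82% of listed genes. ISG15 was at -0.50 there in ETEC vs CON (adjusted p = 0.494) and -0.82 in PET vs ETEC (0.375). With Y-linked detection as a covariate the PET vs CON value was -1.92 (adjusted p = 0.107).

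**Figure D2:**
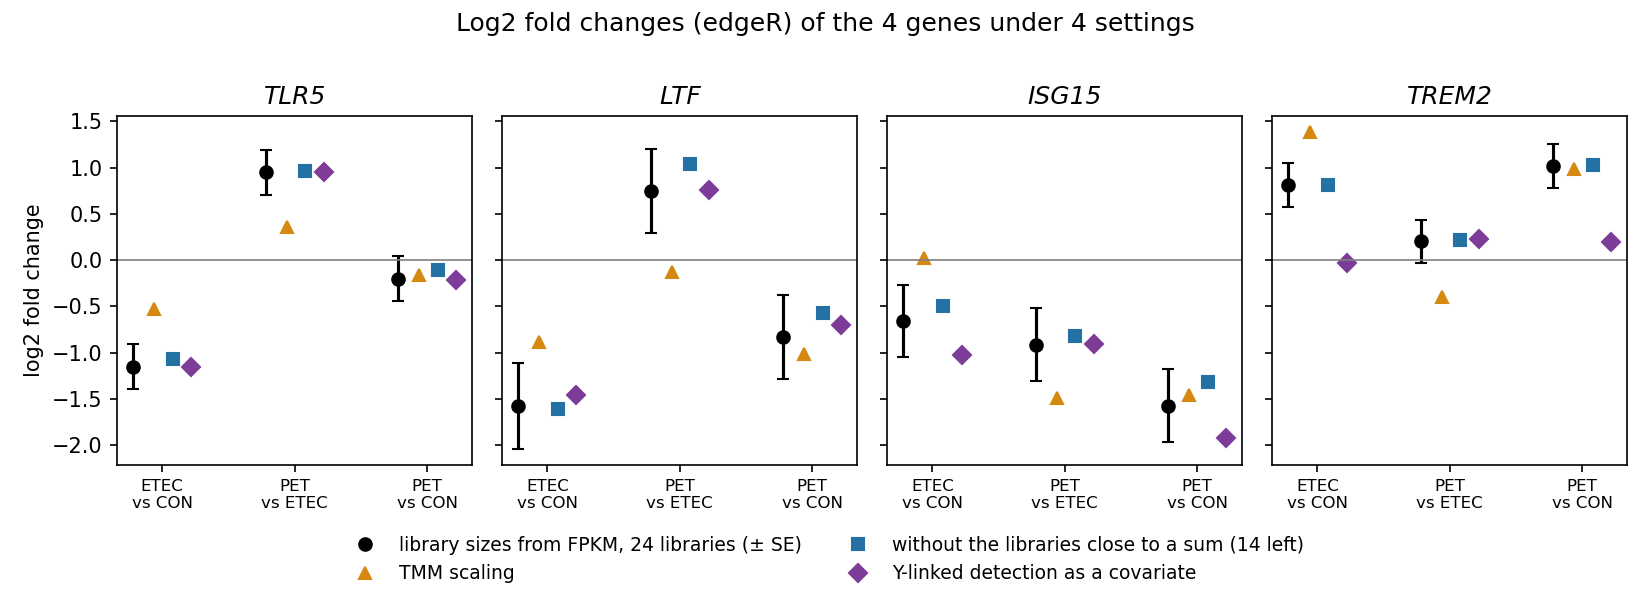
Log2 fold changes of the 4 genes in the 3 comparisons from edgeR, with the SE for the fit over 24 libraries with library sizes from FPKM; triangles use TMM scaling, squares the 14 separate libraries, and diamonds Y-linked detection as a covariate. The TREM2 diamonds lie at -0.031 and 0.19 in the comparisons with CON, against 0.81 and 1.02 without the covariate, and the triangles of TLR5 lie nearer to 0 than its circles in the comparisons that include ETEC.

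TREM2 went the other way, being higher in both challenged groups than in controls. It stood at 0.977 to 1.98 FPKM in CON (median 1.53), 1.28 to 3.35 in ETEC (median 2.72) and 1.89 to 3.97 in PET (median 2.98). Apart from ETEC-8 at 1.28 and PET-8 at 1.89 FPKM, every ETEC and PET library lay above every CON library. Mean TREM2 levels were 1.48 ± 0.382 FPKM for CON, 2.60 ± 0.623 for ETEC and 3.00 ± 0.760 for PET (SD, n = 8 each), from 29 to 182 counts per library. TREM2 rose in ETEC vs CON with a log2 fold change of 0.81 ± 0.23 (SE; adjusted p = 0.00633 in edgeR) and in PET vs CON with 1.02 ± 0.24 (SE; adjusted p = 0.00214), or 1.76-fold and 2.02-fold. These comparisons share the CON libraries. PET vs ETEC gave 0.20 ± 0.23 (SE; adjusted p = 0.509). Among all genes tested, 29.6% were called higher in ETEC and 26.2% higher in PET than in CON. The authors' deposited table has log2 fold changes of 0.88, 1.07 and 0.20 for ETEC vs CON, PET vs CON and PET vs ETEC, with adjusted p of 0.000271, 2.20e-05 and 0.636.

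The 2 challenged libraries with TREM2 at the control level are the 2 that lack Y-linked counts. The 10 libraries with at most 1 Y-linked count had 0.977 to 1.98 FPKM of TREM2, and the 14 with such counts had 2.34 to 3.97. These sets were defined from the counts and are not the study's groups. Nor is the division clean, since ETEC-1 to ETEC-4 and PET-1 to PET-3, all with Y-linked counts, are sum-like. In ETEC-3 and ETEC-4 the weights of ETEC-8 were 32.05% and 51.4%, and in PET-3 that of PET-8 was 64.7%. The 632 listed loci other than the Y-linked ones include the remaining locus on chromosome Y. Of these 632, TREM2 was the 1 locus (0.158%) whose level in every library with Y-linked counts exceeded that in every library without them. In the same way 1 locus was lower. USP9Y, a Y-linked ubiquitin protease, was at 0 FPKM in ETEC-8 and PET-8, and its level ranged up to 18.2 FPKM.

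**Figure D3:**
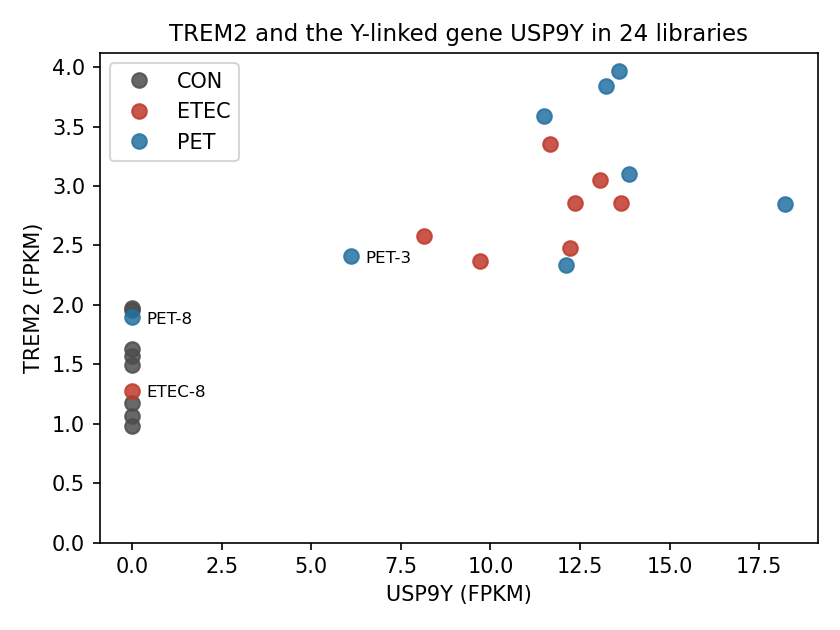
TREM2 against the Y-linked gene USP9Y in 24 libraries, both in FPKM, coloured by group. ETEC-8 and PET-8, with USP9Y at 0, lie within the TREM2 range of the CON libraries (0.977 to 1.98), and the other 14 libraries lie above it.

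With Y-linked detection as a covariate, which was added after the data were seen, the TREM2 value was -0.031 in ETEC vs CON (adjusted p = 0.948) and 0.19 in PET vs CON (0.784), and neither passed. That fit leaves the comparison with CON to ETEC-8 and PET-8, 1 library in each challenged group. Without these 2 libraries TREM2 passed in both comparisons, at 0.91 (adjusted p = 0.00191) and 1.09 (0.000652), where 28.8% and 24.2% of genes were called higher. In every library but ETEC-8 and PET-8 the challenge and the Y-linked counts go together, and there their parts in the TREM2 difference cannot be told apart. Over the 14 separate libraries the TREM2 values were 0.81 in ETEC vs CON (adjusted p = 0.199, unadjusted p = 0.0700) and 1.03 in PET vs CON (adjusted p = 0.140, unadjusted p = 0.0206), with 0.22 in PET vs ETEC (adjusted p = 0.789).

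FPKM scales by gene length, so the levels of the 4 genes can be ordered within a library. ISG15 was the highest in every library except PET-7, where TLR5 was above it. LTF was the lowest in every library except CON-5, where TREM2 was lower. TLR5 and TREM2 changed places: TLR5 was above TREM2 in all 8 CON libraries, whereas TREM2 was above TLR5 in ETEC-1 to ETEC-7 and PET-6, and in PET-1 both were at 3.97 FPKM. In the other 6 PET libraries and in ETEC-8 TLR5 was above TREM2.

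The 4 genes were followed into the sum-like libraries. Of 40 values, being 4 genes in 10 libraries, 25 lay between the levels of the 2 source libraries. The measured FPKM was 0.534 to 1.61 times the weighted mean of the sources. For TREM2 in ETEC-4, for example, the sources were ETEC-8 at 1.28 (51.4% of the weight) and ETEC-7 at 2.86 FPKM, and the measured level was 2.58 FPKM.

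**Figure D4:**
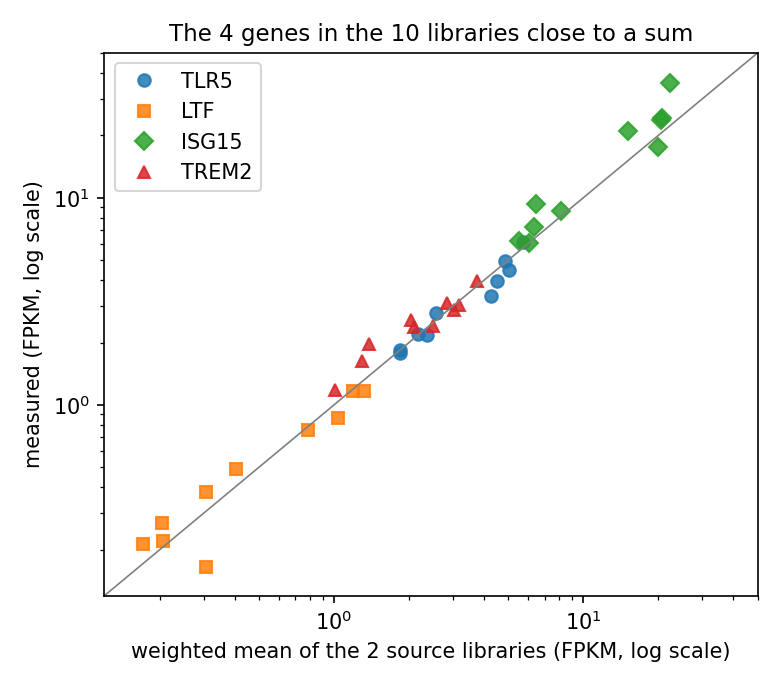
Measured FPKM of the 4 genes in the 10 sum-like libraries, against the weighted mean of the 2 source libraries, on log axes; the line marks equality. The ratios are 0.534 to 1.61, with LTF in PET-3 the lowest and ISG15 in CON-1 the highest.

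Few relatives of these genes are in the table under their symbols. By symbol, TLR5 is the 1 listed member of 55 Toll-like receptor and flagellin sensing genes, and ISG15 the 1 listed member of 61 interferon-induced genes. IFITM1 is among these 61, and a locus without a symbol that is described as interferon-induced transmembrane protein 1 is reported under the other observations. Whether the rest of either pathway changed is not analysed here. Of 49 antimicrobial and iron-withholding genes, 5 are listed and 4 were tested, and in ETEC vs CON 3 of these fell and 0 rose, where 41.2% of all genes tested were called lower, with a median log2 fold change of -1.53 against -0.63 over all genes tested. Besides LTF and MPO, the inducible nitric oxide synthase NOS2 fell (log2 fold change -2.32, adjusted p = 0.00151), from 3.19 ± 3.11 to 0.637 ± 0.145 FPKM (SD, n = 8 each). The fourth, the lectin ITLN2, was at -1.03 (adjusted p = 0.401), and the fifth, the hydrogen peroxide-producing oxidase DUOX1, had too few counts to be tested. In PET vs ETEC ITLN2 rose (log2 fold change 3.34, adjusted p = 0.0265) and LTF, NOS2 and MPO did not pass. In PET vs CON NOS2 was lower (-1.42, adjusted p = 0.0311). Of 25 genes of the TREM2 receptor complex and lipid-associated macrophages, TREM2 and the lysosomal protease CTSL are listed. CTSL rose in ETEC vs CON (log2 fold change 1.56, adjusted p = 0.00411), from 0.320 ± 0.0578 to 0.946 ± 0.665 FPKM (SD, n = 8 each), with at most 14 counts in a CON library. TREM2's adaptor TYROBP is not among the listed genes that have a symbol. Over the 14 separate libraries MPO, NOS2, ITLN2 and CTSL passed in none of the 3 comparisons (NOS2 in ETEC vs CON -2.27, adjusted p = 0.161). All listed genes were selected by the authors on these samples, so these counts are not independent evidence of a direction.

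The genes most like each member were ranked by Spearman's rho of log2(FPKM + 0.1) over the 24 libraries, among named genes averaging 1 FPKM or more. The libraries share groups, and some are sum-like, so rho is a description. TLR5 was nearest to the cytotoxic granule protease GZMM (rho 0.87), the acyltransferase MBOAT1 (0.83) and the kinase MAPK4 (0.83), with rho of 0.72, 0.67 and 0.76 for the deviations from the group means. GZMM fell in ETEC vs CON (log2 fold change -1.12, adjusted p = 0.00171) and rose in PET vs ETEC (0.78, adjusted p = 0.0164), and did not pass over the separate libraries (adjusted p of 0.198 and 0.262). Of the other T and NK cell markers, the granzyme GZMA also fell (-1.15, adjusted p = 0.0313) and rose (1.495, adjusted p = 0.0122), whereas the killer cell receptor KLRF1 did not pass in ETEC vs CON (-0.50, adjusted p = 0.0834) and fell in PET vs ETEC (-0.95, adjusted p = 0.00752). The summed level of the 3 listed T and NK cell markers, of 19, was 22.8 to 101.8 FPKM across CON, 17.1 to 25.7 across ETEC and 21.8 to 133.4 across PET, and its part in the TLR5 values was not tested. Among the genes most like LTF were the Fc receptor-like gene FCRL6 (rho 0.86) and the lymphocyte costimulatory receptor TNFRSF9 (0.82), with rho of deviations of 0.82 and 0.77. The nearest genes to ISG15 had lower values over all libraries, the immunoglobulin mu heavy chain IGHM (0.70), MMP9 (0.64) and the granulocyte transcription factor CEBPE (0.58), with rho of deviations of 0.73, 0.58 and 0.59 and rho of 0.50, 0.47 and 0.50 over the 14 separate libraries. TREM2 was nearest to USP9Y (rho 0.85), the plasma protein Z gene PROZ (0.77) and the lipoprotein assembly gene MTTP (0.67), with rho of deviations of 0.46, 0.64 and 0.56.

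Among the 4 genes themselves, LTF had a rho of 0.55 with TLR5 and 0.57 with ISG15, and TREM2 had negative values with TLR5 (-0.39), LTF (-0.41) and ISG15 (-0.32). Within groups, as deviations from the group means, LTF had 0.37 with TLR5 and 0.45 with ISG15, and TREM2 had -0.31 with TLR5, -0.074 with LTF and 0.22 with ISG15. TLR5 with ISG15 had 0.20, and 0.14 within groups.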

How the data were processed

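TRIzol was used to extract RNA from jejunal tissue, with a check of its integrity, per the labels' protocols. The library text describes small RNA enrichment, whereas the table is per gene. Which aligner, counter, genome build and annotation were used is not given in the sources used here. Whole-number read counts per gene and library were deposited by the authors, per the file headers. The authors also deposited FPKM for the same libraries. For the 3 comparisons the table also has the authors' own log2 fold changes, and each has a deposited p-value.

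Groups came from the sample titles. Library sizes were set to the depth given by the median count-to-FPKM ratio of the 233 genes that reach 20 counts in every library (relative depth 0.718 to 1.50), because the table holds only called genes, which breaks the premise of TMM. Median shifts of the log2 fold changes under TMM were 0.61 (ETEC vs CON), -0.62 (PET vs ETEC) and -0.024 (PET vs CON). The quasi-likelihood test of edgeR 4.0.16 (R 4.3.3) was run on the counts (filterByExpr, 1 fit over 24 libraries, Benjamini-Hochberg over 577 genes, threshold 0.05); 62 genes were not tested, and all 4 members were. SE is the log2 fold change divided by the root of the F value. The script was tested on simulated data. Sum-like libraries were sought among all pairs of other libraries of any group, weighted at 0 or above. The best pair had to leave a residual below 0.8 times that of the best single library (511 genes averaging 20 counts or more). In all 10 that passed, the best pair came from the library's own group. Alternatives were TMM, DESeq2 size factors, no filter, DESeq2 1.42.0, limma 3.58.1 (voom, and log2(FPKM + 0.1) or + 1), only the groups compared, a replicate block, and leaving out libraries; Y-linked detection as a covariate was added after seeing the data. Replicate numbers were not treated as pairs in the main fit, and whether they pair the samples is not given in the sources used here.

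The members, gene lists, rule and scaling were chosen with earlier results of these data known. Genes were named as members, list members in the table, and the 3 genes with a symbol most like each member; some of these are not reported here. Without a stated strand setting, overlapping genes and near-identical copies are uncertain.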

Additional observations from a re-analysis of the deposited data

Results flagged for a closer look

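Values that lay far from the rest of their group of 8 were sought for 20 genes in 3 groups, 60 in all, of which chance would single out about 1 in 20. Of the members, TLR5 was singled out in ETEC, where ETEC-8 was at 2.86 FPKM, and ETEC-8 for TREM2 and CON-5 for LTF were just short of the limit (gap over range 0.525 and 0.520). USP9Y was at 0 FPKM in ETEC-8. In PET, 6 values were the highest of their gene in PET-5, namely 0.237 FPKM for DUOX1, 1.33 for MPO, 26.3 for MBOAT1, 19.5 for MAPK4, 104.1 for MMP9 and 9.05 for CEBPE.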

How the results depend on the processing

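Log2 fold changes are given with adjusted p in brackets where a call moved; the cause was not tested unless named. With TMM scaling, which shifts all genes as given in the processing notes, ETEC vs CON gave TLR5 -0.53 and ISG15 0.026, PET vs ETEC gave TLR5 0.36, LTF -0.12, ISG15 -1.48 and TREM2 -0.40 with 162 genes called, and PET vs CON gave LTF -1.01 (0.0210). The split of calls in ETEC vs CON went from 171 higher and 238 lower to 208 and 89, and in PET vs ETEC from 207 and 64 to 76 and 86. DESeq2 size factors gave TLR5 0.59 (0.0693), ISG15 -1.31 (0.0113) and TREM2 -0.20 in PET vs ETEC, and LTF -0.96 (0.0314) in PET vs CON. DESeq2 gave ISG15 -0.91 (0.0382) in PET vs ETEC. Voom gave ISG15 -0.96 (0.0258) in ETEC vs CON and LTF -1.68 (0.00910) in PET vs CON. On log2(FPKM + 0.1) ISG15 was -0.89 (0.0441) in ETEC vs CON, and on log2(FPKM + 1) it was -0.81 (0.0461), with 171 genes called in PET vs ETEC. Fitting only the groups compared called 130 genes in PET vs CON, with fewer genes tested (505).

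Over the 14 separate libraries, where fewer samples enter, the calls numbered 0, 0 and 10 in ETEC vs CON, PET vs ETEC and PET vs CON, against 409, 271 and 239. Members there were TLR5 -1.07, LTF -1.61 and TREM2 0.81 in ETEC vs CON, TLR5 0.96 in PET vs ETEC, and ISG15 -1.32 and TREM2 1.03 in PET vs CON. TMM over these 14 called 11, 0 and 13 genes, with TLR5 -0.76, LTF -1.15 and TREM2 0.99 in ETEC vs CON, TLR5 0.63 and TREM2 -0.14 in PET vs ETEC, and ISG15 -1.31 and TREM2 0.85 in PET vs CON. With Y-linked detection as a covariate, chosen after seeing the data, 94 genes were called in ETEC vs CON and 35 in PET vs CON, with TLR5 -1.16, LTF -1.46 and TREM2 -0.031 in the former and ISG15 -1.92 and TREM2 0.19 in the latter. The same covariate over the 14 libraries called 0 genes in each comparison (103, 118 and 60 at an unadjusted p under 0.05), with TLR5 -1.11, LTF -1.49 and TREM2 0.034 in ETEC vs CON, TLR5 0.95 in PET vs ETEC, and ISG15 -1.58 and TREM2 0.26 in PET vs CON.

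Leaving out 1 library at a time gave ISG15 -0.95 to -0.49 in ETEC vs CON and -1.05 to -0.62 in PET vs ETEC, and LTF -1.14 to -0.61 in PET vs CON; no other member changed its call. With a replicate block ISG15 was -0.84 (0.0432) in ETEC vs CON, and 380, 185 and 179 genes were called in ETEC vs CON, PET vs ETEC and PET vs CON. Of 24 same-numbered pairs 7 correlated above 0.1 (-0.38 to 0.64), and 7 of 24 libraries were closest to their own number. TLR5 in PET vs CON kept its direction and call in every alternative run.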

Other observations

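Beyond the lists, 8 rows of the table carry a defence protein in the authors' description, and they were picked by that text after the lists had been written. A locus without a gene identifier in the reference annotation, described as interferon-induced transmembrane protein 1, had CON, ETEC and PET means of 21.9 ± 8.56, 8.76 ± 4.00 and 6.06 ± 3.01 FPKM (SD, n = 8 each). It fell in ETEC vs CON (log2 fold change -1.32, adjusted p = 0.00463 in edgeR) and in PET vs CON (-1.85, adjusted p = 0.00055), the comparison in which ISG15 also fell, and did not pass over the 14 separate libraries (adjusted p of 0.187 and 0.0857). Both rows described as interferon-induced very large GTPase 1, which may share reads, did not pass in any of the 3 comparisons. Their log2 fold changes against CON were positive, at 1.27 and 1.89 in ETEC (adjusted p of 0.121 and 0.0578 in edgeR). In PET they were 1.60 and 1.92 (0.0915 and 0.0821). The authors' deposited table called both higher in ETEC vs CON (adjusted p of 0.0358 and 0.00479), as were 30.7% of the listed genes. The row ENSBGRG00000023408, described as the intestinal isozyme of lysozyme C, was at 84.8 FPKM in CON-5, 37.1 in CON-1 and 37.0 in CON-2, and at most 0.174 in the other 21 libraries. CON-1 and CON-2 are sum-like, with CON-5 weighted at 38.5% and 47.0%, and the row was not tested because of its low counts elsewhere. ENSBGRG00000023368, described as lysozyme C-1 (at most 1.36 FPKM), and the mannose-binding lectin MBL2 (at most 0.814) were also not tested. The authors' deposited table called MBL2 lower in ETEC vs CON (-2.33), as were 42.4% of listed genes. It called lysozyme C-1 lower in PET vs ETEC (-4.28), as were 8.45%, but not in ETEC vs CON (3.41).

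Both rows described as C-type lectin domain family 7 member A, the fungal glucan receptor of myeloid cells, are uncertain, since how reads were assigned between them is not given. In the edgeR fit they rose in PET vs ETEC (log2 fold changes 3.39 and 3.13, adjusted p of 0.00502 and 0.00489), where 35.9% of all genes tested were called higher. Over the separate libraries neither passed there (adjusted p = 0.141 for each). In ETEC vs CON ENSBGRG00000021436 fell (-2.14, adjusted p = 0.0206), where 41.2% of genes were called lower, and ENSBGRG00000021067 did not pass (-1.70, adjusted p = 0.0686). ENSBGRG00000021067, the more abundant of them, was at 94.5, 131.8 and 53.6 FPKM in PET-1, PET-4 and PET-5, the same 3 PET libraries in which LTF was high, and at 1.85 to 4.25 in the other 5. PET-1 is sum-like, with PET-4 weighted at 90.4%, so these 3 high values cannot be taken as independent.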
